A study of Saccharomyces cerevisiae with 6 samples.

Results

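Fatty acid synthesis and activation in budding yeast is described here through 10 genes. With earlier results of these data known, they were chosen by name for their roles in the pathway. They are ACC1, FAS1 and FAS2 for chain synthesis, OLE1 and its activator gene MGA2 for desaturation, ELO1 and SUR4 for elongation, and FAA1, FAA3 and FAA4 for activation with coenzyme A. Each of the 10 had 1 probe, so all were measured, among 6226 features tested (4060 named genes and 2166 unnamed probes). SUR4 is called ELO3 in the R64 gene table, and the related gene FEN1 is called ELO2 there.

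Haploid strains of Saccharomyces cerevisiae were compared, one a flor yeast and the other a wine yeast, each with 3 shaken cultures. Total RNA of these 6 cultures was labelled with Cy3 for 1-colour arrays. The flor strain, P3_Kan, is of mating type alpha and carries a KanMX cassette. Mating type a was that of K1_Kan, the wine yeast, and what the suffix Kan stands for there is not explained. Both grew at 28 °C in a synthetic medium made to resemble wine and were harvested once the optical density read 1 (at 600 nm). Flor yeasts form a floating film (velum) on wine, and per the labels no film forms when the culture is shaken. Each strain is 1 haploid isolate, so strain, mating type and every other genetic difference between the isolates cannot be told apart, and a p-value speaks only of the scatter among cultures of these isolates.

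Acetyl-CoA carboxylase, the product of ACC1, makes malonyl-CoA, which fatty acid synthase, built of the beta subunit Fas1 and the alpha subunit Fas2, joins into saturated long-chain acyl-CoA. Ole1, the only fatty acid desaturase of this yeast, then places a double bond and needs molecular oxygen to do so. Elongases in the endoplasmic reticulum lengthen acyl chains, and acyl-CoA synthetases (Faa proteins) attach coenzyme A to free fatty acids taken up from the medium or released from lipids. In wine, fatty acid supply is of interest because unsaturated chains keep membranes fluid in ethanol and medium chains and their esters contribute aroma.

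All values are log2 intensities, 1 per probe and array, and ranged over the arrays from 5.29 to 15.88, with array medians of 8.33 to 8.35. A level is relative to the other genes on an array. RNA came from whole cultures, so fewer cells with a transcript and less transcript per cell cannot be told apart. Marker genes matched the labelled mating types, since all 7 a-specific genes were lower and all 4 alpha-specific genes higher in the flor strain, with medians of −3.36 and 4.99 as log2 changes. Flor replicate 1 stood apart from the other flor arrays. Its correlation across probes was 0.9877 with flor replicate 2 and 0.9903 with flor replicate 3, against 0.9971 between those arrays and 0.9971 to 0.9975 among the wine arrays. Results below are therefore given also without it where that changes them. The labels number 2 slides. Slide 1 held 1 array of each strain and slide 2 held 2 of each.

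The flor strain had less transcript of the enzymes that build the acyl chain, of the acyl-CoA synthetase gene FAA4 and of the transcription factor gene MGA2, and more of the elongase gene ELO1. FAA4 was 3.51-fold lower (95% interval 2.94 to 4.19), FAS1 2.06-fold (1.78 to 2.38), ACC1 1.90-fold (1.63 to 2.23), MGA2 1.83-fold (1.62 to 2.06) and FAS2 1.72-fold (1.43 to 2.07) lower, and ELO1 was 1.75-fold higher (1.48 to 2.07). OLE1, SUR4, FAA1 and FAA3 did not pass the test. Thus 6 of the 10 genes passed at a limma adjusted p under 0.05. The same threshold was passed by 44.1% of all features tested and 47.1% of named genes. By direction, 5 of 10 were lower, against 23.6% of all features, and 1 of 10 was higher, against 20.5%. The median log2 change (flor minus wine) was −0.47 over the 10 genes and −0.02 over all features. The 3 values of one strain lay entirely beyond those of the other in the same 6 genes, and in 56.1% of all features (flor above in 1 of 10 genes and 25.7% of features, flor below in 5 of 10 genes and 30.4% of features). These 6 calls held in each of the 18 other settings tried, including slide 2 alone and the omission of any one array.

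**Figure D1:**
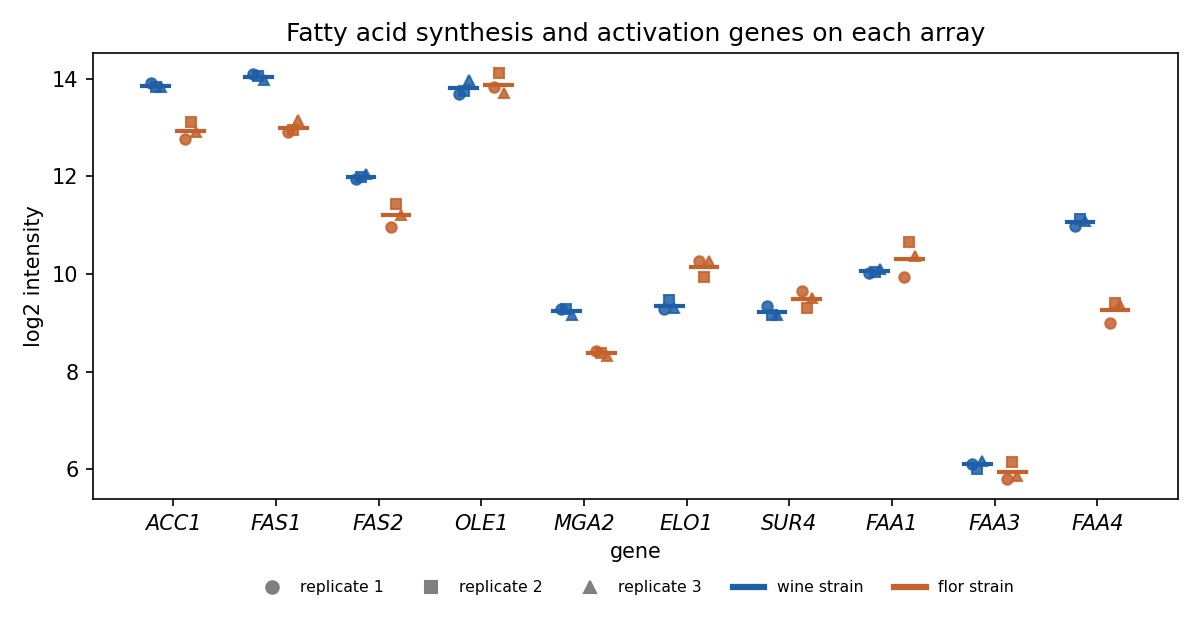
Log2 intensity (vertical axis) of the 10 genes on each array, with wine arrays in blue and flor arrays in orange. Symbols mark the replicate number and horizontal lines the strain means (n = 3). The strains are separate in ACC1, FAS1, FAS2, MGA2, FAA4 (flor below) and ELO1 (flor above) and overlap in the other genes. Heights of different genes come from different probes and are not comparable.

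ACC1 (YNR016C) encodes the cytosolic acetyl-CoA carboxylase, which commits acetyl-CoA to fatty acid synthesis. Its log2 intensity was 12.76, 13.11 and 12.91 in flor replicates 1, 2 and 3 and 13.91, 13.83 and 13.82 in wine replicates 1, 2 and 3. The highest flor value lay 0.71 below the lowest wine value, a gap wider than the spread within either strain. As a log2 change this was −0.93 (SE 0.10, adjusted p = 0.00012), and −0.93 on slide 1 and on slide 2.

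FAS1 (YKL182W) encodes the beta subunit of fatty acid synthase, which carries the loading, dehydration and enoyl reduction activities of the cycle. It gave 12.90, 12.94 and 13.15 in the flor arrays and 14.09, 14.05 and 13.97 in the wine arrays, in order of replicate number. The strains were 0.82 apart at their nearest values. The log2 change was −1.04 (SE 0.09, adjusted p = 3.4e-05), at −0.90 on slide 1 and −1.12 on slide 2.

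FAS2 (YPL231W) encodes the alpha subunit, which holds the acyl carrier domain and the condensing and ketoreduction activities. Its flor values were 10.97, 11.44 and 11.21 and its wine values 11.94, 11.98 and 12.05. All flor arrays were lower again, by 0.50 at the nearest values, although the flor arrays were more scattered (SD 0.23) than the wine arrays (SD 0.05). The log2 change of −0.78 (SE 0.12, adjusted p = 0.00076) was −0.77 on slide 1 and −0.79 on slide 2. Between both subunit genes the changes differed by 0.26, and the FAS1 minus FAS2 difference within arrays overlapped between strains (1.50 to 1.94 in flor, 1.92 to 2.15 in wine; exact permutation p = 0.20, two-sided). The lower level was thus measured for both subunits, and unequal lowering was not resolved with 3 arrays per strain.

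OLE1 (YGL055W) encodes the delta-9 desaturase and is the chief target of Mga2. Its log2 intensities were 13.82, 14.11 and 13.71 in the flor strain and 13.69, 13.74 and 13.97 in the wine strain. The strains overlapped over most of their range. The log2 change was 0.08 (SE 0.12, 95% interval −0.19 to 0.35, adjusted p = 0.62), which bounds the flor level between 0.875 and 1.28 times the wine level. Without flor replicate 2 the estimate was −0.03, so its direction was not determined.

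MGA2 (YIR033W) encodes a transcription factor anchored in the endoplasmic reticulum membrane, which is released by the proteasome when membrane lipids are too saturated or oxygen is low and then activates OLE1. It was measured at 8.43, 8.38 and 8.32 in flor replicates 1 to 3 and at 9.29, 9.28 and 9.17 in wine replicates 1 to 3. These arrays were the closest together of the 10 genes in the flor strain (SD 0.05), and flor replicate 1 deviated here by only 0.07 from the mean of the others. The log2 change was −0.87 (SE 0.08, adjusted p = 3.6e-05), at −0.95 on slide 1 and −0.83 on slide 2. MGA2 transcript was therefore lower in the flor strain while a change in OLE1 transcript of that size lay outside its interval.

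ELO1 (YJL196C) encodes the elongase that extends medium chains to the usual length of membrane lipids. Flor replicates 1, 2 and 3 had 10.26, 9.94 and 10.26, and wine replicates 1, 2 and 3 had 9.28, 9.46 and 9.30. Every flor array was above every wine array, by at least 0.48. ELO1 was the only one of the 10 genes called higher, with a log2 change of 0.81 (SE 0.11, adjusted p = 0.0004), at 0.80 on slide 1 and 0.81 on slide 2.

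SUR4 (YLR372W, also ELO3) encodes the elongase that makes the very long chains of ceramides. Its values were 9.66, 9.31 and 9.51 in flor and 9.34, 9.16 and 9.16 in wine. Only flor replicate 2 and wine replicate 1 overlapped, by 0.03. The log2 change of 0.28 (SE 0.11, 95% interval 0.04 to 0.52) did not pass after adjustment (adjusted p = 0.062). It passed without flor replicate 2 (0.37, adjusted p = 0.019), and with all arrays when the replicate number was a block (adjusted p = 0.025) or arrays were weighted (0.0059), so the call depended on these choices.

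FAA4 (YMR246W) encodes one of the main long-chain acyl-CoA synthetases, acting on imported and recycled fatty acids. Flor values were 9.00, 9.40 and 9.36 and wine values 10.99, 11.12 and 11.08. The gap between the nearest values was 1.60, the widest of the 10 genes. With a log2 change of −1.81 (SE 0.11, adjusted p = 3.8e-06), FAA4 ranked 39 from the most lowered among 4060 named genes. The change was −1.76 on slide 1 and −1.84 on slide 2.

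FAA1 (YOR317W), which encodes the other main synthetase of imported long chains, did not pass the test. It gave 9.93, 10.65 and 10.37 in flor and 10.03, 10.05 and 10.11 in wine. Flor replicates 2 and 3 were above all wine arrays and flor replicate 1 was below them. The log2 change was 0.25 (SE 0.16, 95% interval −0.11 to 0.61, adjusted p = 0.23). Without flor replicate 1 it was 0.45 and passed (adjusted p = 0.0013). On slide 1, which lacks that array, it was 0.32, and on slide 2 it was 0.22.

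FAA3 (YIL009W) encodes a further acyl-CoA synthetase of long chains. Its probe was dim on every array, at 5.80, 6.16 and 5.87 in flor and 6.12, 6.00 and 6.18 in wine, where the lower quartile of all values was 7.11. The strains overlapped, and the log2 change was −0.16 (SE 0.11, adjusted p = 0.27). So close to the bottom of the measured range, the interval of −0.40 to 0.09 may not bound a change in transcript.

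**Figure D2:**
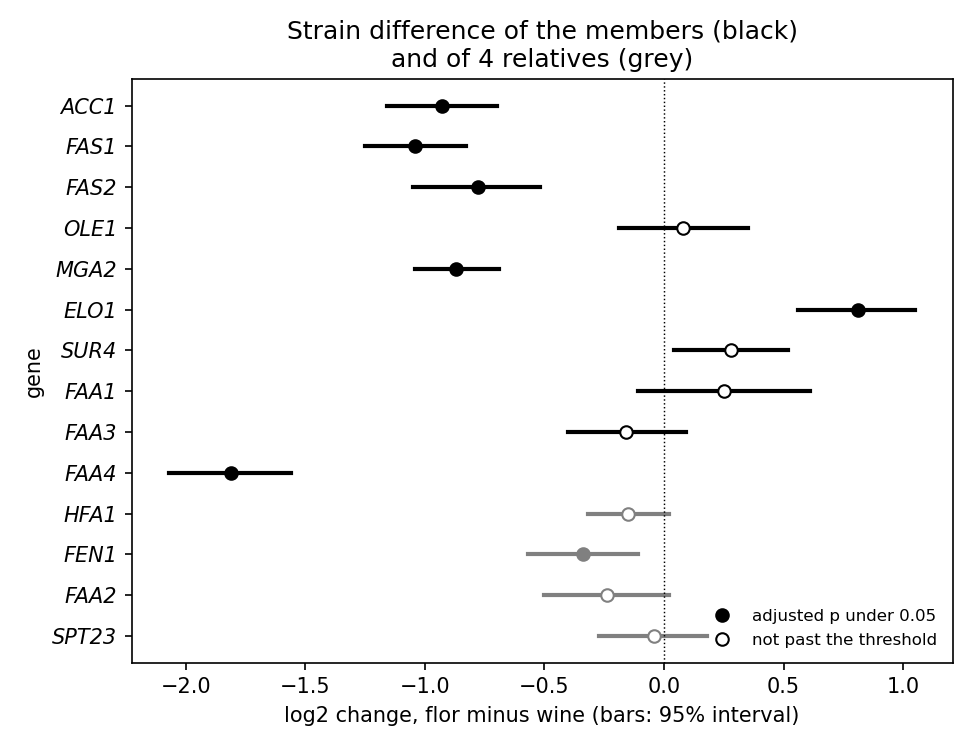
Log2 change (flor minus wine, horizontal axis) of the 10 genes in black and of 4 related genes in grey, with 95% intervals from limma. Filled points passed an adjusted p under 0.05. FAA4 lies farthest to the left at −1.81, and ELO1 at 0.81 is the only filled point to the right of 0.

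Paralogs and partner genes were then set against one another. Differences between the changes of 8 gene pairs, chosen after their values were seen, were tested by exact permutation of the 6 arrays, for which 3 against 3 allows no p below 0.10 (0.13 after adjustment over the 8 pairs). FAA1 and FAA4 differed most, by 2.06 on the log2 scale. Their difference within arrays ran from 0.92 to 1.25 in flor and from −1.07 to −0.96 in wine, without overlap (p = 0.10, exact). FAA2, which encodes the peroxisomal synthetase of medium chains, did not pass (log2 change −0.24, adjusted p = 0.13; −0.11 without flor replicate 1).

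MGA2 and its paralog SPT23, which also activates OLE1, differed by 0.82 (exact p = 0.10). SPT23 was at 9.67 ± 0.16 in flor and 9.72 ± 0.07 in wine (SD, n = 3), with a log2 change of −0.04 and a 95% interval of −0.27 to 0.18. A decrease as large as that of MGA2 lay outside this interval.

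Among the elongases, the change of ELO1 exceeded that of SUR4 by 0.53 and that of FEN1 by 1.15, and the change of SUR4 exceeded that of FEN1 by 0.62, each without overlap between strains (exact p = 0.10 for each). FEN1, the elongase of chains between those of Elo1 and Sur4, was lower in the flor strain (log2 change −0.34, adjusted p = 0.024; −0.57 on slide 1 and −0.22 on slide 2). It lost this call without flor replicate 2 (adjusted p = 0.058), flor replicate 3 (0.073) or wine replicate 2 (0.084).

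HFA1, the mitochondrial counterpart of ACC1, was at 8.62 ± 0.05 in flor and 8.77 ± 0.03 in wine (SD, n = 3) and did not pass (log2 change −0.15, adjusted p = 0.13). The changes of ACC1 and HFA1 differed by 0.78 without overlap (exact p = 0.10). ACC1 and FAS1, by contrast, differed by 0.11 with overlapping values (exact p = 0.60).

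Flor replicate 1 deviated in opposite directions in different genes of the set. Against the mean of the other flor arrays it was lower by 0.58 in FAA1, 0.37 in FAA4, 0.35 in FAS2, 0.25 in ACC1, 0.22 in FAA3, 0.15 in FAS1 and 0.09 in OLE1, and higher by 0.25 in SUR4, 0.17 in ELO1 and 0.07 in MGA2. Without it, the 6 calls remained, with log2 changes of −0.99 for FAS1, −0.84 for ACC1, −0.67 for FAS2, −1.69 for FAA4, −0.89 for MGA2 and 0.75 for ELO1. FAA1 joined them as the seventh gene called.

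ACC1, FAS1 and FAS2 are among the longest genes of yeast, with coding lengths of 6702, 6156 and 5664 bases, and the log2 change was lower in longer genes across the array. Of 50 named genes at least as long as FAS2, 20 (40.0%) were called lower in flor and 8 called higher, with a median of −0.19. The share called lower was 33.1% of 988 genes from 2000 bases to below that length and 25.1% of 3015 genes under 2000 bases (median −0.01). Over all 4060 named genes 1106 were called lower. The share over all features, which include unnamed probes without a length, was 23.6%. Within those 50 long genes FAS1 ranked 2, ACC1 ranked 3 and FAS2 ranked 5 from the most lowered. Flor replicate 1 minus the mean of the other flor arrays had a median of −0.10 in those 50 genes. It was −0.11 in the 988 genes and 0.05 in the 3015 genes. How far this array contributes to the length trend was not tested. With a trend on coding length removed, the changes were −0.95 for FAS1, −0.85 for ACC1, −0.68 for FAS2, −0.72 for MGA2, −1.68 for FAA4 and 0.79 for ELO1, and all of these 6 still passed. FAA1 passed as well in that setting (0.39, adjusted p = 0.038).

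**Figure D3:**
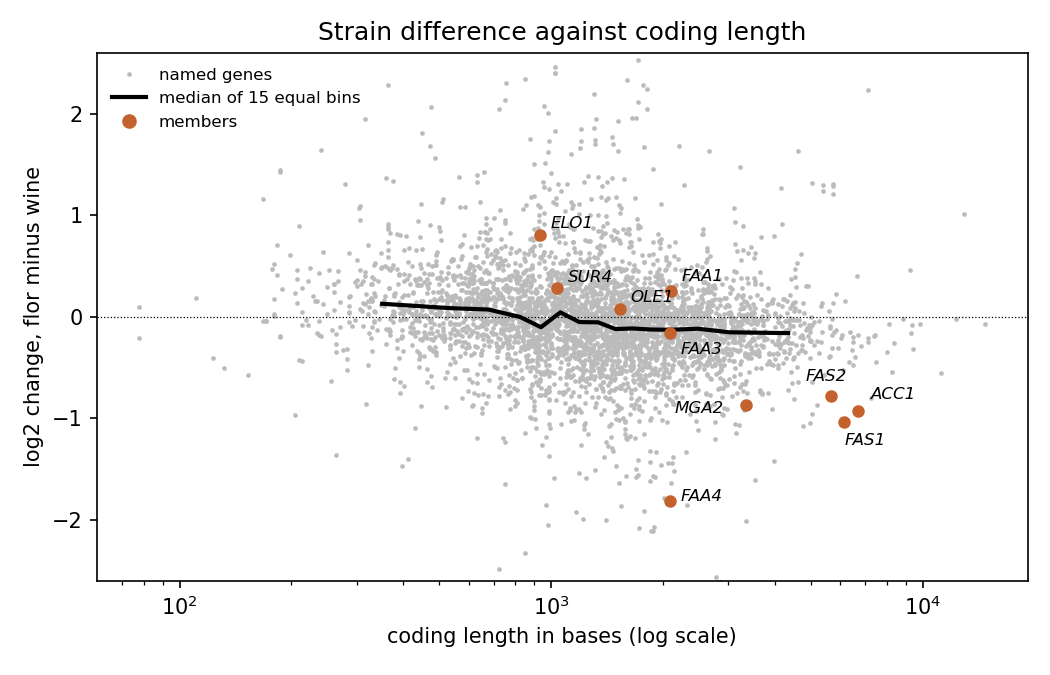
Log2 change (flor minus wine, vertical axis) against coding length in bases (log scale) for 4053 named genes in grey, with the 10 genes in orange and the median of 15 bins of equal gene number as a black line. FAS1, ACC1 and FAS2 lie below the end of the median line and below most genes of similar length. The 46 genes beyond a log2 change of 2.6 in either direction are outside the drawn range.

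Genes around the pathway were described through 6 further lists with 66 genes, of which 59 had a named probe. In the flor strain 12 of them were higher, 19 were lower and 28 did not pass (median −0.18, with 52.5% called against 44.1% of all features). Every measured gene of these lists is a named gene, and 47.1% of all 4060 named genes were called. On slide 2 alone, with 2 arrays per strain, the calls given below for TSC13, FEN1, FAT1, INO4, DOA10, CEM1, LAC1, LAG1, SCS7, POX1, ECI1 and OAF1 were lost (adjusted p = 0.056 to 0.21). With flor replicate 1 left out, 5 elongation, 5 acetyl-CoA, 4 MGA2 and SPT23 processing and 5 mitochondrial genes were called, against 4, 4, 3 and 4. Over all features 3279 were called in that setting, against 2746.

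Acetyl-CoA for chain synthesis comes in the cytosol from the acetyl-CoA synthetases, and both of their genes were lower. ACS1, the form used on non-fermentable carbon, was at 9.16, 9.22 and 9.14 in flor and 10.49, 10.70 and 10.88 in wine, a log2 change of −1.52 (SE 0.10, adjusted p = 7e-06). ACS2, the form used during growth on sugar, changed by −0.69 (adjusted p = 0.0031). SNF1, whose kinase product inhibits acetyl-CoA carboxylase, was also lower (−0.73, adjusted p = 0.0057). INO2 and INO4 encode the pair of activators that bind the promoters of ACC1, FAS1 and FAS2, and OPI1 encodes their repressor. INO4 was higher by 0.35 (adjusted p = 0.020), a call lost without wine replicate 1 (adjusted p = 0.082) or 2 (0.079) and with the length trend removed (0.16). INO2 (−0.10, adjusted p = 0.55) and OPI1 (−0.10, adjusted p = 0.58) did not pass. In this list of 10 genes, 1 was higher and 3 were lower (median −0.18), so that 40.0% were called, near the 44.1% of all features.

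Of 7 measured partners of elongation and of acyl-CoA handling, 1 was higher and 3 were lower (median −0.27), which is 57.1% called against 44.1% of all features. The gene higher was CYB5, for cytochrome b5, an electron donor in sterol and lipid synthesis. It rose from 7.75, 7.49 and 7.41 in wine to 10.32, 9.45 and 9.71 in flor, 4.86-fold (95% interval 3.54 to 6.66, adjusted p = 3.5e-05), and flor replicate 1 was the highest by 0.74 over the mean of the others. TSC13, the enoyl reductase of the elongation cycle, was lower by a log2 change of −0.61 (adjusted p = 0.0038), as were FEN1 and FAT1 (−0.31, adjusted p = 0.016), which acts in fatty acid import and very long chain activation. FAT1 lost its call when wine replicate 2 was omitted (adjusted p = 0.071), which together with the loss of FEN1 left 2 genes called in this list, nor with the length trend removed (0.073).

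Mga2 and Spt23 are released from the membrane after ubiquitination by Rsp5, with the Cdc48 complex pulling out the processed form. The list for this route and for OLE1 regulation held 9 genes, including ATF1, which is not a step of the route and did not pass. Of the 9 genes, 0 were higher and 3 lower (median −0.09), which is 33.3% called, against 44.1% of all features. The number called was 3 to 4 with single arrays left out, with 0 to 1 higher. It was 5 with array weights or the replicate number as a block, and 2 on slide 2 alone or with the length trend removed. RSP5 changed by −0.45 (adjusted p = 0.0096; −0.20 on slide 1 and −0.57 on slide 2), UBX2, a membrane adaptor of Cdc48, by −0.63 (adjusted p = 0.0083; slides −0.43 and −0.74), and DOA10 (SSM4 in the R64 table), a ubiquitin ligase of the endoplasmic reticulum, by −0.36 (adjusted p = 0.0064). DOA10 did not pass with the length trend removed (adjusted p = 0.062). UBX2 was lower by 0.56 in flor replicate 1 than in the mean of the other flor arrays.

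Mitochondria make the octanoyl precursor of lipoic acid by a separate set of single-function enzymes. Of 8 measured genes of that route, 3 were lower and 1 higher (median −0.21), which is 50% called against 44.1% of all features. The lipoate genes LIP2 (−0.81, adjusted p = 0.0006) and LIP5 (−0.63, adjusted p = 0.00017) and the acyl carrier gene ACP1 (−0.61, adjusted p = 0.00095; slides −0.82 and −0.51) were lower, and CEM1, the condensing enzyme, was higher (0.69, adjusted p = 0.0055; slides 0.96 and 0.56).

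Of 13 genes that place acyl chains in lipids, 4 were higher and 3 lower (median 0.04), which is 53.8% called against 44.1% of all features. Without flor replicate 1, 6 were higher and 4 lower, with 3279 of all 6226 features called. The acyltransferases of phosphatidic acid synthesis SLC1 (−1.10, adjusted p = 0.00013) and SCT1 (−0.58, adjusted p = 0.0043) were lower. ARE2, the main sterol acyltransferase (0.56, adjusted p = 0.0016), and DGA1, which makes triacylglycerol (0.42, adjusted p = 0.0023), were higher. Of the ceramide synthase genes, LAC1 was higher (0.54, adjusted p = 0.0028) and LAG1 lower (−0.43, adjusted p = 0.012, but 0.056 without wine replicate 1). SCS7, a hydroxylase of ceramide fatty acids, completed the higher genes (0.41, adjusted p = 0.025) and lost its call without flor replicate 2 or 3 or wine replicate 1 or 3.

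Of 12 measured genes of beta-oxidation and its regulation, 5 were higher and 4 lower (median 0.00), which is 75% called against 44.1% of all features. SPS19, a reductase needed for chains with certain double bonds, was 3.36-fold higher (95% interval 2.96 to 3.81), at 9.16, 9.22 and 9.26 in flor against 7.36, 7.51 and 7.52 in wine. POT1, the thiolase of the last step, was 2.62-fold higher (2.20 to 3.13). ADR1, a transcription factor of ethanol and fatty acid use, was 2.67-fold lower (2.17 to 3.29), and PXA1, a subunit of the peroxisomal importer of long-chain acyl-CoA, was 1.69-fold lower (1.47 to 1.94). The partner subunit gene PXA2 (0.40, adjusted p = 0.0028) was higher instead, as were the isomerase gene ECI1 (0.35, adjusted p = 0.021, but 0.089 without wine replicate 2) and OAF1 (0.44, adjusted p = 0.0039), whose product activates the oleate-induced genes. The acyl-CoA oxidase gene POX1, for the first step, was lower by a log2 change of −0.49 (adjusted p = 0.015), but not without wine replicate 2 (0.066). DCI1, a paralog of ECI1, was lower (−0.45, adjusted p = 0.0020) at dim values of 5.95 ± 0.10 in flor and 6.40 ± 0.04 in wine (SD, n = 3).

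**Figure D4:**
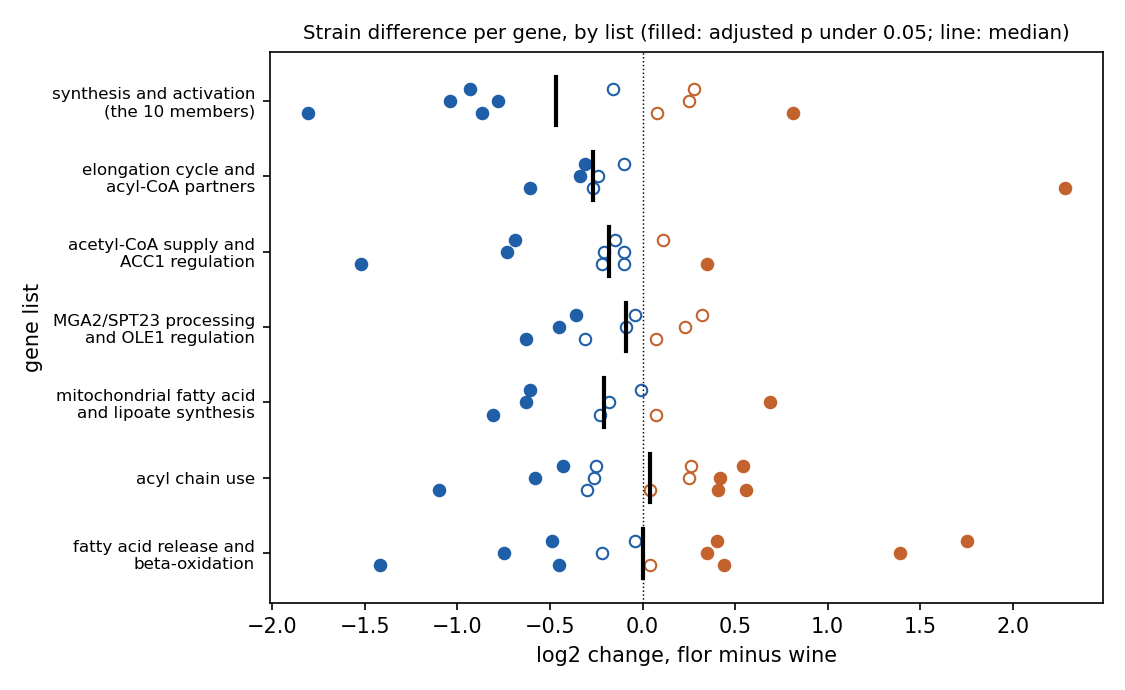
Log2 change (flor minus wine, horizontal axis) of each measured gene, by list, with genes higher in flor in orange and lower in blue. Filled points passed an adjusted p under 0.05, vertical lines are list medians, and points are spread vertically only for legibility. The 10 genes of synthesis and activation have a median of −0.47, and the median of the beta-oxidation list is 0.00.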

How the data were processed

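The values are the authors' deposited log2 intensities of 1-colour arrays, 1 column per culture. The log2 scale and a normalization between arrays were read from the values, and the sources used here do not give the normalization and background methods. R 2.14.2 and limma appear in the submitters' processing notes. Probes were named through the platform annotation and the R64 gene table. FEN1, a synonym of ELO2 and RAD27 there, was taken as ELO2, since RAD27 has a probe of its own. The probes of FDH2 were averaged, and no dim probe was removed.

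A model of strain means over the 6 arrays was fitted with limma 3.58.1 (lmFit, eBayes) in R 4.3.3, with Benjamini-Hochberg adjustment over 6226 features. Replicate numbers were not taken to pair the cultures. Deviations of same-numbered arrays from the strain means correlated at 0.372, 0.228 and 0.051. Those of differently numbered arrays correlated at −0.328 to 0.186. These values do not decide whether the cultures were paired, and the replicate number was also tried as a block.

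The 10 genes, the lists and the gene pairs were chosen with earlier results of these data known. By rule the text names the 10 genes, up to 4 genes per other list with the largest called changes, FEN1, FAA2, SPT23, HFA1, INO2, INO4 and OPI1. DGA1, LAG1, SCS7, PXA2, ECI1, OAF1, POX1 and DCI1 were added once their values had been seen. Alternatives comprised other normalizations, filters on dim features, other variance models and weights, slide and replicate number as blocks, slide 2 alone, a length trend removed (loess, span 0.5, genes without a length left as they were), each array left out, and an adjusted p under 0.01. In both strains the label of replicate 2 also reads technical replicate 2; a partner array was not analysed here.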

Additional observations from a re-analysis of the deposited data

How the results depend on the processing

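Of 38 single-gene results, 19 had the same direction and call in all 18 other settings, and FAA2, UBX2, SCT1, ARE2 and SPS19 in the 17 run for them, since they were not tested without the dimmest 50% of features. The count of features called was 2746 of 6226. It was 1761 at an adjusted p under 0.01, 1424 on slide 2 alone and 2040 to 3279 with single arrays left out. Without the dimmest 50% of features, 1543 of the 3113 features still tested were called. Between 6 and 7 of the 10 genes were called with single arrays left out. The elongation list, with 4 genes called, had 2 at an adjusted p under 0.01, 1 on slide 2 alone and 2 to 5 with single arrays left out. With array weights, 3770 of 6226 features and 9 of the 10 genes were called, against 2746 and 6. In that setting 5 genes of the MGA2 and SPT23 processing list and 12 of acyl chain use were called, against 3 and 7. With the replicate number as a block these counts were 5 and 11, and the count over all features was 2973. On slide 2 alone 4 genes of acyl chain use were called. The beta-oxidation list had 5 called, against 9, without the dimmest 50% of features, where fewer genes were tested. The causes of the other shifts were not tested. Direction turned only in genes that did not pass, which were OLE1 (−0.04 with array weights, and −0.03 to 0.16 with single arrays left out, lowest without flor replicate 2), INO2 (0.05 with array weights, and −0.22 to 0.00 with single arrays left out), OPI1 (−0.20 to 0.02, highest without wine replicate 3) and SPT23 (0.02 with array weights, 0.10 with the length trend removed, and −0.10 to 0.05 with single arrays left out, highest without flor replicate 1). SUR4 passed with array weights (adjusted p = 0.0059) and the replicate block (0.025), and FAA1 (0.0031) and FAA3 (0.035) with array weights. FAA3 and INO2 were tested with neither share of dim features removed, and FAT1 not without the dimmest 50%. Probes designed on one strain's sequence can bind another's less well, which was not tested, and low signal limits FAA3.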
